A study of Mus musculus with 56 samples.

Results

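The drug-metabolizing cytochrome P450 genes of the Cyp2a, Cyp2b, Cyp2c, Cyp2d, Cyp2j and Cyp3a subfamilies were followed in mouse liver, with Por, Nr1i2 and Nr1i3. Protein-coding genes whose symbols begin with these letters were taken, which gave 54 genes of 52230 with Por, Nr1i2 and Nr1i3 included. The rule reads symbols and no expression value, but it was set with earlier results of these data known. The prefix also took in Cyp2ab1, a gene of its own subfamily. Liver RNA came from 56 male mice of the knock-in line GCKR-P446L-EMI-B6N, whose glucokinase regulatory protein (GKRP, gene Gckr) has proline (P) or leucine (L) as residue 446. Every mouse was fed for 20 weeks on HFHSD, a diet rich in fat (45% of energy) with 10% glucose and 5% fructose to drink. Some mice of each genotype were given GKA, an activator of glucokinase, in this diet at 3 mg/kg. The genotypes are called PP, PL and LL here, and the sample titles call them GKRP-446P, GKRP-446P/L and GKRP-446L. There were 10 PP mice on HFHSD alone and 10 with GKA, 8 and 8 PL mice, and 10 and 10 LL mice. PP mouse 7, which had no GKA, was left out of every comparison, so that 9 PP mice without GKA and 55 mice in all were compared. The substitution is carried in every tissue of this single line, livers are frozen pieces of the left lateral lobe, and the labels give no age, litter, batch or time of day.

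Cytochromes P450 of these subfamilies sit in the endoplasmic reticulum of hepatocytes and oxidise drugs, steroids, bile acids and fatty acids. Each of them takes its electrons from NADPH through 1 shared flavoprotein, cytochrome P450 oxidoreductase, the product of Por. Nr1i2 encodes the pregnane X receptor (PXR) and Nr1i3 the constitutive androstane receptor (CAR), nuclear receptors that bind as partners of RXR and raise transcription of Cyp2b10, Cyp3a11, Cyp2c29, Por and other genes when activated by drugs or bile acids. Several members have sex-dependent levels in mouse liver, with Cyp2d9 higher in males and Cyp2b9, Cyp2b13, Cyp2a4, Cyp2c40 and Cyp3a41a higher in females.

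Each liver gave between 5189852 and 8093368 reads. Albumin and 8 other hepatocyte genes together made between 87782 and 146885 counts per 1000000 reads (CPM, a level not corrected for length) in every mouse, against at most 0.636 CPM for 6 pancreas genes. Gckr, the gene that carries the substitution, was at 182 ± 26.2 CPM (SD, n = 9) in PP and at 152 ± 20.2 CPM (SD, n = 10) in LL without GKA. In whole tissue, fewer cells of a type and less RNA per cell cannot be told apart. Each mouse is 1 replicate.

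The Cyp2d genes on chromosome 15 were the most abundant members per transcript length. In transcripts per 1000000 (TPM, a level per length) averaged over 55 mice, Cyp2d9 was at 1064 TPM, Cyp2d10 at 546 TPM and Cyp2d26 at 384 TPM. The chief members of the other families followed. Cyp2c29, an epoxide-forming enzyme of arachidonic acid, was at 324 TPM, Cyp2a5, the mouse coumarin 7-hydroxylase, at 243 TPM, and Cyp2a12 at 228 TPM. Cyp3a25 was at 212 TPM and Cyp3a11, the main xenobiotic-inducible Cyp3a enzyme, at 154 TPM. Cyp2c50 was at 158 TPM, Cyp2j5 at 156 TPM and Cyp2c70, which hydroxylates bile acids to muricholic acids, at 116 TPM. The shared reductase was below all of these enzymes, with Por at 36.0 TPM, while the receptors were at 39.8 TPM for Nr1i3 and 10.4 TPM for Nr1i2. The ranges over mice of neighbours in this order overlapped, for example 91.0 to 637 TPM for Cyp2c29 and 23.0 to 1059 TPM for Cyp2a5.

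**Figure D1:**
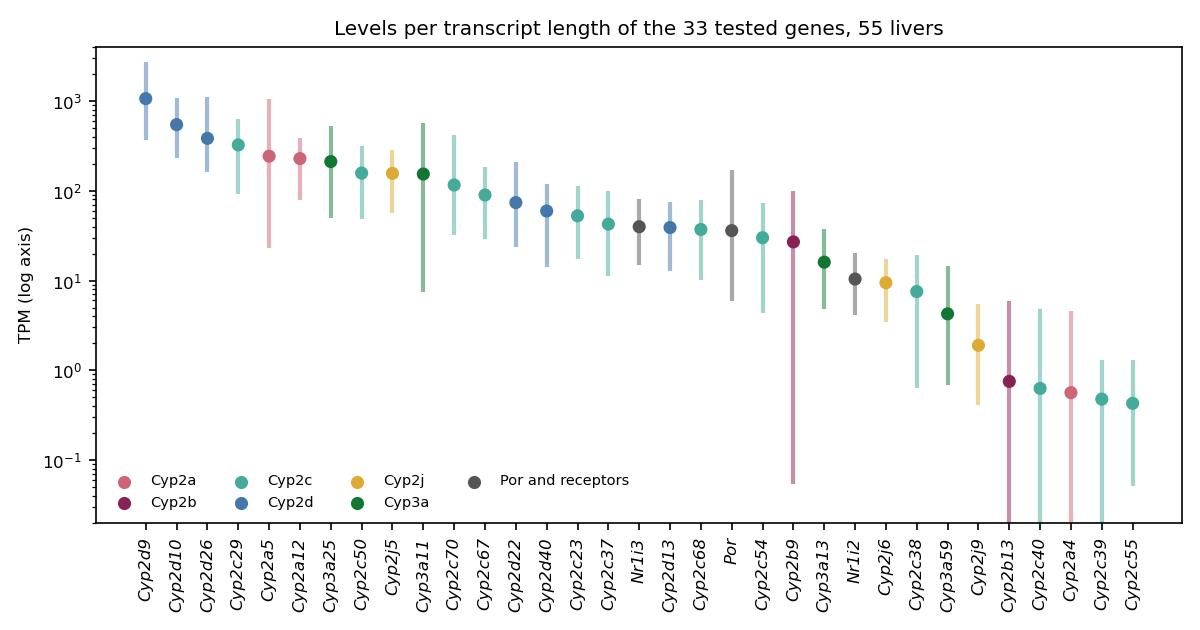
Mean level in transcripts per 1000000 (TPM, log axis) over 55 livers of each of the 33 tested genes, with vertical bars from the lowest to the highest mouse and colours for subfamilies. Cyp2d9 stands highest at 1064 TPM and bars that reach the bottom edge end at 0.02 TPM or lower, 0 included.

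Of the 54 genes, 49 had at least 1 read in some mouse. The remaining 5, Cyp2b19, Cyp2b23, Cyp2c66, Cyp2j7 and Cyp2j12, had none in 56 libraries. A filter on low counts kept 33 members in the fit of 55 mice, and 28 of them were kept in all 14 comparisons, whereas Cyp2a4, Cyp2b13, Cyp2c39, Cyp2c40 and Cyp2c55 were kept in some. Tested were 3 of 4 Cyp2a genes, 2 of 5 Cyp2b, 12 of 15 Cyp2c, 6 of 9 Cyp2d, 3 of 8 Cyp2j and 4 of 9 Cyp3a, and all of Por, Nr1i2 and Nr1i3. Cyp2b10, the classical target of CAR, was among the 21 not tested, with 0 to 2.67 CPM over 55 mice. The others with reads that were not tested were Cyp2a22, Cyp2ab1, Cyp2c65, Cyp2c69, Cyp2d11, Cyp2d12, Cyp2d34, Cyp2j8, Cyp2j11, Cyp2j13, Cyp3a16, Cyp3a41a, Cyp3a41b, Cyp3a44 and Cyp3a57.

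Near-identical copies limit what is known of single members. Of the 31-base words of a gene's transcripts, 100% occurred in no other gene for Por, Nr1i2, Cyp2c70 and Cyp2c23. The share was 97.5% for Cyp2j9, 89.5% for Cyp2c29 and 84.5% for Cyp3a11. It was 45.4% for Cyp2a5, which shared 44.9% of its words with Cyp2a4, a gene at 1.13 CPM on average against 377 CPM for Cyp2a5. For Nr1i3 it was 31.9%, because 68.1% of its words also lie in Tomm40l, which overlaps it on the other strand. The strand setting of the counting is not given in the sources used here, so reads of the part that Nr1i3 and Tomm40l share cannot be told apart. Cyp3a41a and Cyp3a41b shared nearly all words and their reads cannot be assigned.

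Summed over a subfamily, the Cyp2d genes made 2966 ± 429 CPM (SD, n = 9) in PP and 3071 ± 766 CPM (SD, n = 10) in LL without GKA. The Cyp2c genes summed to 2313 ± 672 CPM in PP, against 1781 ± 349 CPM (SD, n = 8) in PL and 1951 ± 571 CPM in LL. The Cyp3a genes summed to 890.1 ± 266 CPM in PP, against 658 ± 239 CPM in PL and 1046 ± 386 CPM in LL. For Cyp2a the sum was 772 ± 150.4 CPM in PP and 1122 ± 434 CPM in LL. Heterozygous PL mice had a Cyp2a sum of 946 ± 342 CPM without GKA and 926 ± 262 CPM with it. The Cyp2b genes summed to 67.6 ± 43.3 CPM in PP and 99.6 ± 65.0 CPM in LL without GKA, and to 87.5 ± 50.0 and 46.0 ± 32.1 CPM with GKA. Their Cyp2b sum in PL mice was below that of PP in each arm, at 26.0 ± 22.6 CPM without GKA and 52.7 ± 56.7 CPM with it. Between PP and LL the order with GKA was the other way for Cyp2a, Cyp2b and Cyp3a. The Cyp2a sum was then 833 ± 157 CPM in PP and 749 ± 144 CPM in LL (SD, n = 10 each), and the Cyp3a sum 1016 ± 349 CPM in PP and 843 ± 167 CPM in LL. All P450 members together held 0.762% of reads in PP, 0.698% in PL and 0.786% in LL without GKA, and 0.754%, 0.684% and 0.674% in the same order with GKA. These sums were not tested.

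The members varied more between mice of 1 group than most genes did. The SD of log2 CPM within groups had a median of 0.44 over the 28 members above 5 CPM, against 0.26 over 7822 genes above 5 CPM. It exceeded the 90th percentile of those genes, 0.45, in 13 of the 28 members. Cyp2b9 had the widest spread, with an SD of 1.88, followed by Cyp3a11 at 0.99, Cyp2c54 at 0.95 and Cyp2a5 at 0.79. At the other end stood Cyp2j5 at 0.17, Cyp2j6 at 0.17 and Cyp2d22 at 0.19. Single mice led or trailed for many members at once. PL mouse 26 was the highest of its group for 18 of the 28 members, PP mouse 6 was the lowest of its group for 15, and LL GKA mouse 48 the lowest for 13.

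The first question was which members differed with the genotype. In a fit of genotype and GKA together over 55 mice, 3 of 33 members passed in LL against PP (an adjusted p under 0.05 with a fold of 1.3 or more, or of 0.7 or less), with Cyp2j9 and Por higher and Cyp2c29 lower. Over all 11477 genes tested, 1.7% passed, and DESeq2 called 3 members and 1.88% of genes. At an unadjusted p below 0.05 were 8 of 33 members and 16% of genes. In PL against PP, 2 of 33 members passed, Cyp2c29 and Cyp3a11, both lower, against 1.05% of all genes, and DESeq2 called 2 members and 1.18% of genes. Here 10 of 33 members and 14.1% of genes had an unadjusted p below 0.05. The median log2 fold change was -0.04 over the 33 members and 0.003 over all genes in LL against PP, and -0.10 and -0.0002 in PL against PP. Both comparisons use the same PP mice. With an offset for transcript length in the same fit, 0 of 33 members passed in LL (0.244% of genes) or in PL (0.139% of genes) by edgeR, and 5 and 8 had an unadjusted p below 0.05, with adjusted p of 0.0834 in LL and 0.0522 in PL for Cyp2c29, 0.0522 for Cyp3a11 in PL, 0.200 for Cyp2j9 and 0.455 for Por in LL, although the directions of these values were the same. Without the filter on low counts, Cyp2c29 alone of 49 members passed, against 0.648% of genes in LL and 0.426% in PL.

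Cyp2c29 (chromosome 19, 39257849 to 39319157 on the + strand of GRCm39) was lower in both genotypes that carry leucine. Without GKA it ranged from 619.6 to 1529 CPM in PP (median 934), from 516 to 984 CPM in PL (median 609) and from 386 to 1245 CPM in LL (median 723). With GKA it ranged from 579 to 1395 CPM in PP (median 968), from 352 to 959 CPM in PL (median 685) and from 184 to 897 CPM in LL (median 595). The groups overlapped, but 8 of 8 PL and 8 of 10 LL mice without GKA lay below the mean CPM of the PP mice of the same arm, as did 8 of 8 PL and 10 of 10 LL mice with GKA. The log2 fold change over both arms was -0.66 (SE 0.16, adjusted p = 0.0143) in PL and -0.60 (SE 0.15, adjusted p = 0.0126) in LL against PP, or 0.632-fold and 0.662-fold. Cyp2c29 passed in both comparisons when any 1 of the 55 mice was left out, with adjusted p of at most 0.0289.

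**Figure D2:**
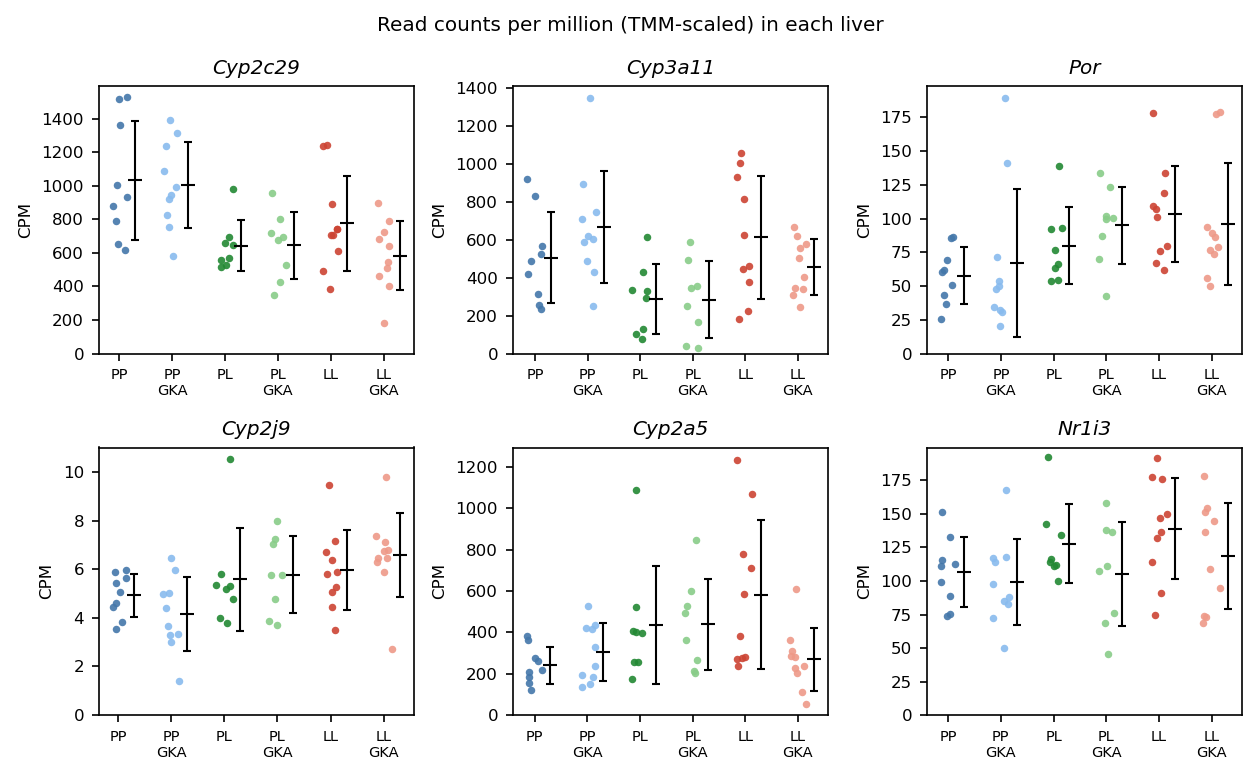
CPM (TMM-scaled, linear axis from 0) of 6 genes in each of 55 livers, 1 point per mouse, with the mean and SD of each group to the right of its points. All PL and LL mice with GKA lay below the mean of the PP mice with GKA for Cyp2c29, and the 2 PL groups held the lowest Cyp3a11 values.

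Cyp3a11 (chromosome 5, 145791236 to 145816867, - strand) was lower in PL. Without GKA it ranged from 234 to 921 CPM in PP (median 491), from 74.7 to 615 CPM in PL (median 310.4) and from 184 to 1056 CPM in LL (median 543). With GKA the ranges were 249 to 1346 CPM in PP (median 613), 26.6 to 589.6 CPM in PL (median 300.3) and 248 to 669.9 CPM in LL (median 454). Below the PP mean lay 7 of 8 PL mice without GKA and 8 of 8 with GKA, against 5 of 10 and 9 of 10 LL mice. Over both arms the log2 fold change was -1.05 (SE 0.29, adjusted p = 0.0421) in PL and -0.15 (SE 0.27, unadjusted p = 0.588) in LL against PP. The LL value pools arms of opposite direction, with the LL median above that of PP without GKA and below it with GKA. The difference between LL and PL itself was 0.90 (SE 0.29, unadjusted p = 0.00277) and did not pass after adjustment (adjusted p = 0.176). The PL call was lost, with adjusted p of at most 0.0717, when any 1 of 18 mice was left out, which were PP mice 5 and 8, PP GKA mice 11, 12, 13, 14, 16 and 18, PL mice 21, 23, 25, 26 and 28, and PL GKA mice 31, 32, 33, 34 and 35.

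The other Cyp3a genes gave smaller values. Cyp3a25 had a log2 fold change of -0.09 (SE 0.10) in PL and 0.17 (SE 0.10) in LL against PP, Cyp3a59 of -0.39 (SE 0.21) and 0.15 (SE 0.19), and Cyp3a13 of 0.10 (SE 0.10) and 0.12 (SE 0.09), and none passed. In LL against PL over both arms, 0 of 33 members passed by edgeR and 0 by DESeq2, against 0.34% and 0.444% of all genes. In that comparison 4 members had an unadjusted p below 0.05, all with higher values in LL, which were Cyp3a11, Cyp3a59, Cyp2b13 and Cyp3a25, against 8.82% of all genes.

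Cyp2j9, a member of the Cyp2j cluster (chromosome 4, 96445637 to 96479941, - strand), was higher in LL at a low level. It had 3.54 to 5.97 CPM in PP (median 5.05) and 3.48 to 9.45 CPM in LL (median 5.86) without GKA, and 1.397 to 6.46 CPM (median 4.03) and 2.73 to 9.80 CPM (median 6.62) with GKA. Above the PP mean lay 8 of 10 LL mice without GKA and 9 of 10 with GKA. The log2 fold change over both arms was 0.46 (SE 0.14, adjusted p = 0.0383) in LL and 0.33 (SE 0.14, adjusted p = 0.273) in PL. The call was lost, with adjusted p of at most 0.0751, without any 1 of 14 mice, which were PP mice 2 and 10, PP GKA mice 14, 15, 16, 18, 19 and 20, LL mice 38, 45 and 46, and LL GKA mice 52, 53 and 56. Cyp2j5, the steadiest member, ranged from 392 CPM in an LL mouse with GKA to 641 CPM in a PP mouse without it. Cyp2j5 and Cyp2j6 had values of -0.06 (SE 0.06) and 0.08 (SE 0.06) in LL.

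Por (chromosome 5, 135698887 to 135764182, + strand) was higher in LL. It ranged from 25.6 to 86.2 CPM in PP (median 60.2), from 53.4 to 139 CPM in PL (median 71.8) and from 62.0 to 178 CPM in LL (median 104) without GKA. With GKA it ranged from 20.6 to 189 CPM in PP (median 49.1), from 42.7 to 134 CPM in PL (median 99.8) and from 50.2 to 179 CPM in LL (median 82.7). All 10 LL mice without GKA and 8 of 10 with GKA lay above the PP mean, although the groups overlapped. Over both arms the log2 fold change was 0.68 (SE 0.20, adjusted p = 0.0445) in LL and 0.48 (SE 0.21, adjusted p = 0.284) in PL against PP. The study itself named Por from these livers, so its direction is not independent evidence.

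The Por call sat close to the threshold. It was lost, with adjusted p of at most 0.0865, without any 1 of 21 mice, which were PP mice 1, 2, 3, 5, 8 and 9, PP GKA mice 11, 12, 15, 16, 17, 18 and 19, LL mice 37, 38, 41, 43, 45 and 46, and LL GKA mice 47 and 53. The transcript Por-201 made 92.6 ± 6.94% (SD, n = 55) of its estimated reads. Transcript use was not tested.

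The receptors had smaller differences that did not pass. Nr1i3 was at 107 ± 25.8 CPM (SD, n = 9) in PP, 128 ± 29.3 CPM (SD, n = 8) in PL and 139 ± 37.9 CPM (SD, n = 10) in LL without GKA, and at 99.4 ± 32.3, 105.3 ± 38.9 and 119 ± 39.7 CPM in the same order with GKA. Without GKA, Nr1i2 was at 37.8 ± 5.98 CPM in PP, against 41.0 ± 3.93 CPM in PL and 42.3 ± 9.88 CPM in LL, and at 35.7 ± 6.77, 37.5 ± 6.03 and 40.8 ± 7.27 CPM in the same order with GKA. In LL against PP over both arms the log2 fold change was 0.32 (SE 0.14, unadjusted p = 0.0261, adjusted p = 0.230) for Nr1i3 and 0.18 (SE 0.08, unadjusted p = 0.0266, adjusted p = 0.233) for Nr1i2.

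**Figure D3:**
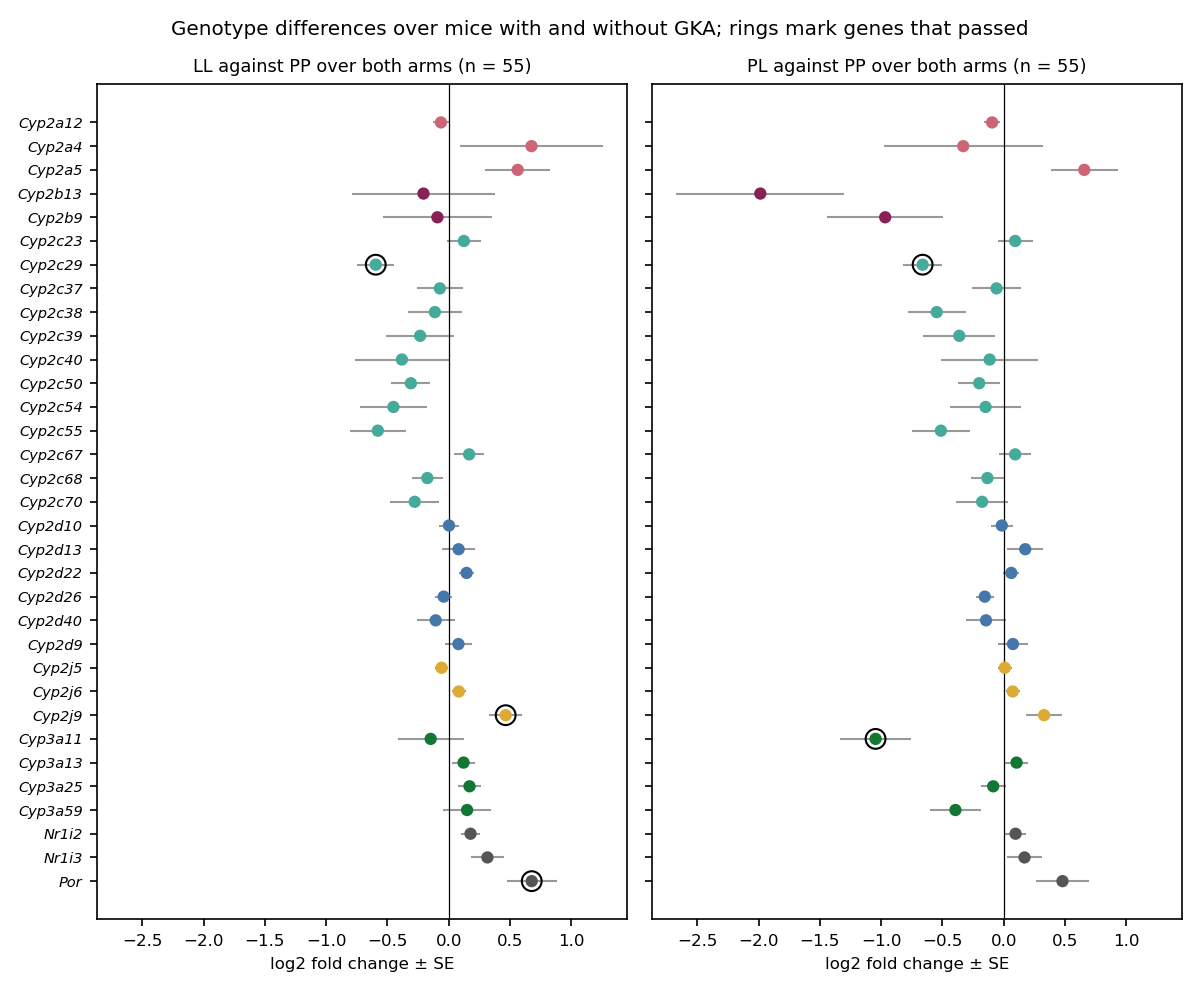
Log2 fold change with its SE for each of the 33 tested members in LL (left) and PL (right) against PP, from 1 fit of genotype and GKA over 55 mice, coloured by subfamily, with rings on members that passed. Most Cyp2c genes lie left of 0 in both panels, and the ringed genes are Cyp2c29, Cyp2j9 and Por on the left and Cyp2c29 and Cyp3a11 on the right.

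Across the Cyp2c cluster on chromosome 19, 2 of 12 tested genes had log2 fold changes above 0 in LL and 2 of 12 in PL, against 50.9% and 50% of all genes, and only Cyp2c29 passed in either comparison. The median over the 12 genes was -0.26 in LL and -0.16 in PL. Cyp2c55 had -0.58 (SE 0.23, unadjusted p = 0.0132) in LL and -0.51 (SE 0.24, unadjusted p = 0.0365) in PL, at 0.149 to 2.53 CPM over all mice. Cyp2c38 had -0.55 (SE 0.24, unadjusted p = 0.0243) in PL, Cyp2c50 had -0.31 (SE 0.16) in LL, and Cyp2c70 had -0.28 (SE 0.20) in LL, and none of these passed. Several of the 12 share words with each other, such as Cyp2c67 and Cyp2c68 with Cyp2c40, while Cyp2c70 and Cyp2c23 share none, so the 12 values are not all independent.

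The Cyp2d genes, which were the most abundant, had values near 0. Without GKA, Cyp2d9, a steroid 16-alpha-hydroxylase, ranged from 835 to 1637 CPM in PP (median 1409), from 1079 to 1700.2 CPM in PL (median 1397) and from 777 to 2279 CPM in LL (median 1233), and the 3 groups overlapped. Cyp2d9 had a log2 fold change of 0.08 (SE 0.11) in LL and 0.07 (SE 0.12) in PL, and Cyp2d10 of 0.00 (SE 0.08) and -0.02 (SE 0.09). Cyp2d22 had 0.15 (SE 0.06, unadjusted p = 0.0194) in LL and Cyp2d26 had -0.16 (SE 0.07, unadjusted p = 0.0342) in PL, neither passing after adjustment. Cyp2a12 had -0.06 (SE 0.06) in LL and -0.10 (SE 0.07) in PL. Cyp2b9 ranged from 0.149 CPM in a PL mouse with GKA to 220.5 CPM in an LL mouse without it, and had -0.97 (SE 0.47, unadjusted p = 0.0455) in PL. Its neighbour Cyp2b13 had -1.99 (SE 0.68, unadjusted p = 0.00535, adjusted p = 0.128) in PL, at no more than 11.1 CPM in any mouse.

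Fitted on 2 groups at a time, no member passed by edgeR in any of the 9 comparisons. In LL against PP without GKA, 0 of 28 passed (0.0854% of all genes), and 3 had an unadjusted p below 0.05 (11.8% of genes), which were Cyp2a5, Por and Nr1i3. DESeq2 called Cyp2a5 and Por there, 2 of 28, and 1.05% of genes. In PL against PP without GKA, 0 of 28 passed (0.151% of genes), 4 had such a p (10.1% of genes), and DESeq2 called 1, Cyp2c29, and 0.671% of genes. In LL against PP with GKA, 0 of 28 passed (0.239% of genes), and 3 had such a p (10.4% of genes). These were Cyp2j9, higher in LL, and Cyp2c29 and Cyp3a11, lower in LL. DESeq2 called 1 there, Cyp2c29, and 0.88% of genes.

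DESeq2 called none of the members in the other comparisons of genotypes within an arm. In PL against PP with GKA, 0 of 30 passed by edgeR (0% of genes, and 0.295% by DESeq2) and 3 had an unadjusted p below 0.05 (8.19% of genes). In LL against PL without GKA, 0 of 28 passed (0.00942% of genes, and 0.207% by DESeq2) and 3 had such a p (4.58% of genes). In LL against PL with GKA, 0 of 29 passed (0% of genes, and 0.343% by DESeq2) and 0 had such a p (8.6% of genes).

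Cyp2a5 had the smallest unadjusted p of the 28 members in LL against PP without GKA. It ranged from 120.2 to 381 CPM in PP (median 218), from 173 to 1087 CPM in PL (median 401) and from 236 to 1235 CPM in LL (median 484). Above the PP mean of CPM lay 9 of 10 LL mice and 7 of 8 PL mice, and the groups overlapped. The log2 fold change was 1.28 (SE 0.32, unadjusted p = 6.77e-04, adjusted p = 0.105) in LL and 0.86 (SE 0.30, unadjusted p = 0.00998, adjusted p = 0.298) in PL. Of 19 fits of LL against PP without GKA that each left out 1 mouse, Cyp2a5 passed in 1. That fit, without LL mouse 42, gave 1.36 (SE 0.32, adjusted p = 0.0441). In the other fits it did not pass, with adjusted p of up to 0.192. With GKA, Cyp2a5 ranged from 134 to 528 CPM in PP (median 284), from 202 to 845 CPM in PL (median 428) and from 54.7 to 612 CPM in LL (median 260.3).

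GKA moved no member past the threshold. In PP, 0 of 30 members passed by edgeR and by DESeq2 (0% of genes by each), and 0 had an unadjusted p below 0.05 (3.56% of genes). In PL, 0 of 28 passed by both (0% of genes by edgeR and 0.00962% by DESeq2), and 0 had such a p (3.18% of genes). In LL, 0 of 28 passed by both (0% and 0.0574% of genes), and 3 had such a p (6.15% of genes). These were Cyp2a5 at -1.11 (SE 0.36, unadjusted p = 0.00584, adjusted p = 0.650), Cyp2b9 at -1.08 (SE 0.49) and Cyp3a59 at -0.54 (SE 0.24). Over the 3 genotypes, 0 of 33 passed by both (0% and 0.00871% of genes), and 2 had such a p (5.28% of genes), Cyp2d22 at -0.11 (SE 0.05) and Cyp3a25 at -0.18 (SE 0.08).

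The interaction term asked whether the difference made by GKA was unlike in LL and PP. It passed for 0 of 33 members by edgeR (0% of 11193 genes, no fold threshold) and by DESeq2, and 3 had an unadjusted p below 0.05 (5.75% of genes). Cyp2a5 had -1.44 (SE 0.47, unadjusted p = 0.00420, adjusted p = 0.867), with means of 240.4 ± 88.9 CPM (SD, n = 9) in PP and 303 ± 141 CPM (SD, n = 10) in PP with GKA. The means were 583 ± 359 CPM (SD, n = 10) in LL and 269 ± 152 CPM (SD, n = 10) in LL with GKA. Cyp2b9 had -1.43 (SE 0.70) and Cyp2b13 -3.09 (SE 1.07), with adjusted p of 0.867 each.

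Livers differed in their clock genes, and the levels of Por and Cyp2a5 varied with Dbp. The circadian clock of the liver drives the transcription factors Dbp, Tef and Hlf, which bind sequences named D-boxes in promoters. Dbp itself rose in LL by 1.16 (SE 0.34, adjusted p = 0.0349) and in PL by 1.37 (SE 0.35, adjusted p = 0.0216) on the log2 scale over both arms. It ranged from 7.31 to 30.9 CPM in PP (median 12.6), from 20.4 to 91.4 CPM in PL (median 50.4) and from 14.0 to 98.8 CPM in LL (median 34.4) without GKA. Of 16 clock genes, 2 rose and 4 fell in LL, and 6 rose and 4 fell in PL. Over all genes, 1.7% passed in LL and 1.05% in PL, and 16% and 14.1% had an unadjusted p below 0.05. In PL, Cry1 and Nfil3, picked after values were seen, fell by 1.08 (SE 0.21) and 0.92 (SE 0.19). The values of other repressors in the list, such as Per1, Per2 and Nr1d1, are not given here.

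Across 55 mice, log2 CPM of Cyp2a5 and Dbp had Pearson r = 0.73 and Spearman rho = 0.83, each with a permutation p of 1e-05, the smallest that 100000 permutations can give, and an adjusted p of 3e-05 over 6 relations. After the group means were subtracted, r was 0.76 and rho 0.87, each with a permutation p of 1e-05, so the relation was also present among mice of like genotype and treatment. Within the 6 groups r lay between 0.83 and 0.92. Without the 2 mice farthest from the median of Dbp, r was 0.79. For Por and Dbp, r was 0.72 and rho 0.76, each with a permutation p of 1e-05, r was 0.65 after subtraction of group means, 0.75 without the 2 farthest mice, and between 0.14 and 0.79 within the 6 groups.

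**Figure D4:**
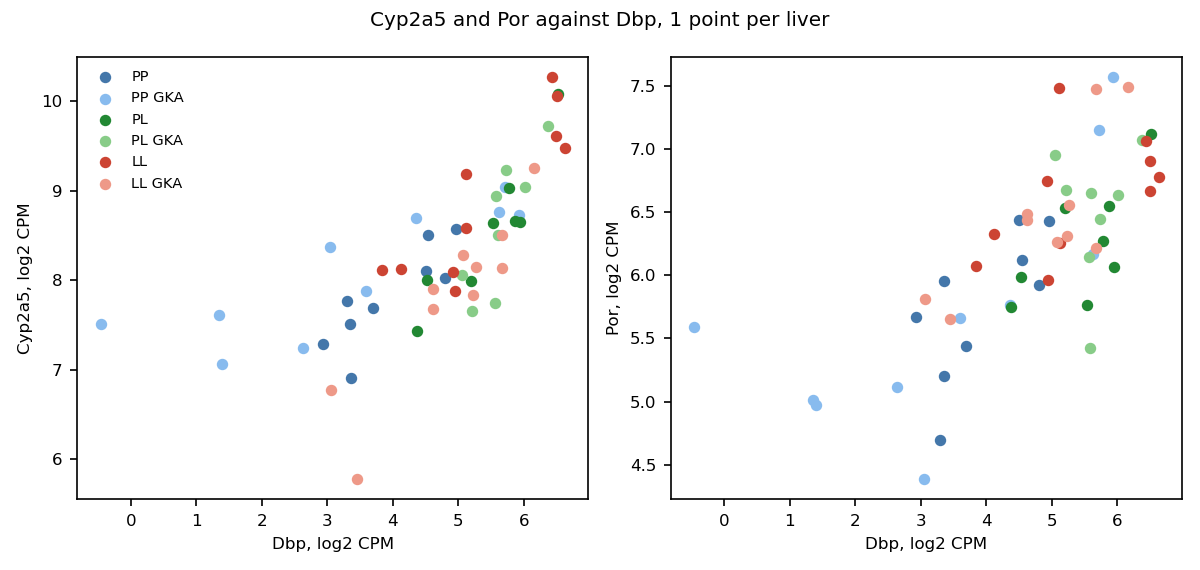
Log2 CPM (prior count 2) of Cyp2a5 (left) and Por (right) against that of Dbp, 1 point for each of 55 livers, coloured by group. Both genes are higher in livers with more Dbp, with Pearson r = 0.73 for Cyp2a5 and 0.72 for Por.

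The other 4 relations of the same family did not pass. Nr1i3 with Dbp gave r = 0.23 and rho = 0.24 (permutation p = 0.0917 and 0.0772). Cyp2b10 with its receptor Nr1i3 gave r = 0.09 and rho = 0.04 (permutation p = 0.524 and 0.773). That pair cannot show whether the genes are related, because Cyp2b10 had a median of 1 read per mouse. Nr1i3 also shares 68.1% of its words with Tomm40l, which limits every relation that includes Nr1i3. Cyp3a11 with Nr1i2 gave r = 0.18 and rho = 0.16 (permutation p = 0.188 and 0.246), and Cyp2c29 with Nr1i3 gave r = 0.05 and rho = 0.03 (permutation p = 0.738 and 0.850). The adjusted p over the 6 relations was at least 0.154 for each of these 4.

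The 16 clock genes were reduced to their first principal component, which held 61.1% of their variance and was oriented so that Dbp was high at high values. Its mean was -0.63 ± 0.55 (SD, n = 9) in PP and -0.88 ± 1.296 (SD, n = 10) in PP with GKA, against 0.57 ± 0.80 and 0.55 ± 0.54 (SD, n = 8 each) in PL and PL with GKA. It was 0.52 ± 0.79 and 0.03 ± 0.76 (SD, n = 10 each) in LL and LL with GKA. When this component was added to the fit, 0 of 33 members passed by edgeR in LL and 0 in PL against PP, against 0.714% and 0.139% of all genes, and 6 and 13 members had an unadjusted p below 0.05. The fit with the component was not run in DESeq2.

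The members divided by how their values moved. Por went from 0.68 to 0.19 (SE 0.16, adjusted p = 0.634) in LL and from 0.48 to -0.14 (SE 0.17) in PL. The LL value of Cyp2a5 over both arms pools opposite directions. Its mean was 240 CPM in PP and 583 CPM in LL without GKA, and 303 and 269 CPM with GKA. With the component, Cyp2a5 went from 0.56 to -0.40 (SE 0.19) in LL and from 0.66 to -0.47 (SE 0.21) in PL. By contrast Cyp2c29 held -0.57 (SE 0.18, adjusted p = 0.105) in LL and -0.63 (SE 0.20, adjusted p = 0.159) in PL, and Cyp2j9 held 0.47 (SE 0.16, adjusted p = 0.137) in LL. Cyp3a11 had -1.41 (SE 0.36, adjusted p = 0.0663) in PL. Genotype and the component overlap in these mice, and the time at which each liver was taken was not used here, so genotype and time of harvest cannot be told apart.

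**Figure D5:**
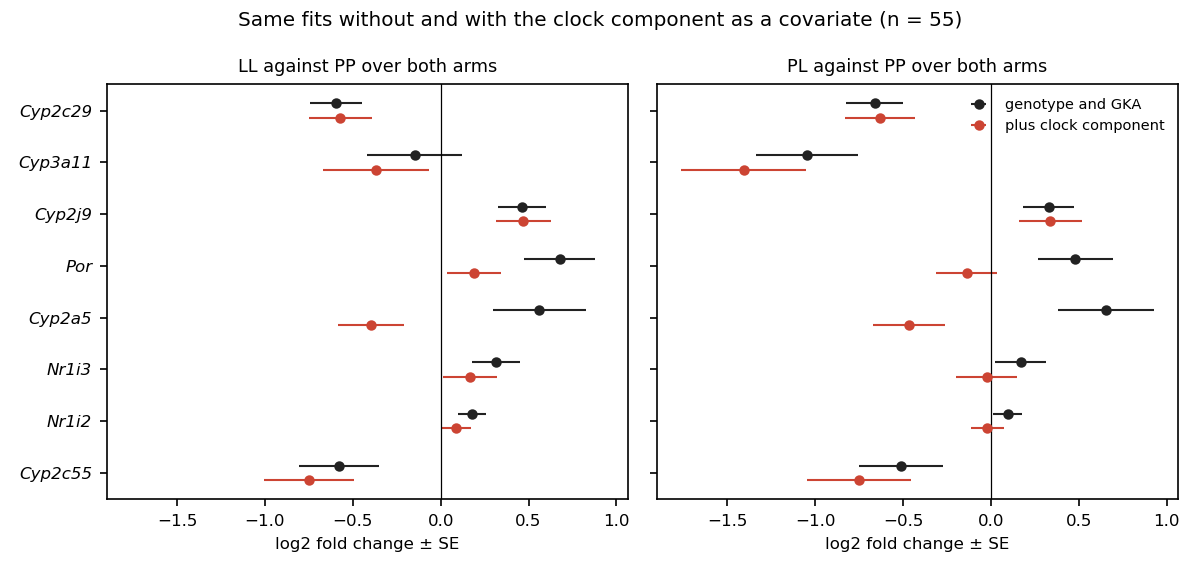
Log2 fold change with its SE for 8 members in LL (left) and PL (right) against PP, from a fit of genotype and GKA (black) and the same fit with the clock component added (red), 55 mice. Cyp2c29 and Cyp2j9 keep their values, while Por and Cyp2a5 move towards or past 0.

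The promoters of Cyp2c29, Cyp3a11, Por and Cyp2a5 are shown because the results above turn on these genes, and because Dbp and the receptors CAR and PXR act through short DNA sequences. Each is the 250 bases before the start of the canonical transcript, read from GRCm39, 5′ to 3′ on the strand of the gene. The canonical starts of Cyp2c29 and Por lie inside the annotated span of the gene, downstream of the starts of other transcripts. Searched on both strands were the D-box TTATGTAA and its relaxed form TTANNTAA, which contains it, the nuclear receptor hexamer sites AGGTCA and AGTTCA, the hepatocyte nuclear factor 4 sequence CAAAGTCCA, and TATAAA. Capitals mark the matches to these letters.
Cyp2c29, chr19:39275268-39275517, + strand: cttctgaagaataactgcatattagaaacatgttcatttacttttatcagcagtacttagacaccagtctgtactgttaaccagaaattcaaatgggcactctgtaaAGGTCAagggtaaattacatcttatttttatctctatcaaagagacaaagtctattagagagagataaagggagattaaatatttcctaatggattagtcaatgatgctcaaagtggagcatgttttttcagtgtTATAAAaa
Cyp3a11, chr5:145816868-145817117, - strand: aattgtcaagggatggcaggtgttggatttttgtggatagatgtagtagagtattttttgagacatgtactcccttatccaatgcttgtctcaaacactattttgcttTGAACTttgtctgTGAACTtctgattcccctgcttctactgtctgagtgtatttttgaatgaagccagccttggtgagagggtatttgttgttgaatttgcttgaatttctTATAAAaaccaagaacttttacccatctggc
Por, chr5:135717640-135717889, + strand: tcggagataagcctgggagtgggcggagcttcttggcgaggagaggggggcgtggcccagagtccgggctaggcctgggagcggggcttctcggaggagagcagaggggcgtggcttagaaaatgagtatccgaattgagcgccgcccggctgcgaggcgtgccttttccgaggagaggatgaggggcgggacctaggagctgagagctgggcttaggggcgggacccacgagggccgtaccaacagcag
Cyp2a5, chr7:26534480-26534729, + strand: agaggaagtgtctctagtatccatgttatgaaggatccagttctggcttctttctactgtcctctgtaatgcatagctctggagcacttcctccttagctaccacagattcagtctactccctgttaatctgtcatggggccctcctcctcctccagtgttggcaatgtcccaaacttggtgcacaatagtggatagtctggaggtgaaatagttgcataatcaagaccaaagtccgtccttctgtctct

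The windows of Cyp2c29 and Cyp3a11 held hexamer sites and those of Por and Cyp2a5 held none of the 6 letter patterns. Cyp2c29 had AGGTCA at -143 and TATAAA at -8, counted from the transcript start with the base before it as -1. Cyp3a11 had 2 copies of AGTTCA on the other strand, at -142 and -129, and TATAAA at -31. Por and Cyp2a5 had no TATAAA. A match is a run of letters and not a measured binding site, and a window without a match can hold related sequences that were not searched.

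Over 21770 protein-coding genes, TTATGTAA lay in 0.836% of such windows and in 0 of the 54 members, and TTANNTAA in 5.33% and in 9 of 54. AGGTCA lay in 13.1% and in 12 of 54, and AGTTCA in 12.1% and in 6 of 54. TATAAA lay in 11.9% of all windows and in 21 of 54 members. CAAAGTCCA lay in 0.372% and in 9 of 54, which were Cyp2c40, Cyp2c65, Cyp2c67, Cyp2c68, Cyp2c69, Cyp2c70, Cyp3a16, Cyp3a41a and Cyp3a41b. Many of these genes are tandem copies, so their promoters are not independent.

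Other genes of the pathway were mostly within the spread between mice. Of 28 tested targets of CAR and PXR outside these subfamilies, none passed in LL and Tsku alone passed in PL, falling by 0.94 (SE 0.24, adjusted p = 0.0195). Of 17 genes of electron transfer and haem turnover, none passed in either comparison, the smallest p in LL being that of Cyb5b at -0.19 (SE 0.06), below the fold set for a call. Among 22 receptor partners and coregulators, Nr1h4, the bile acid receptor FXR, rose by 0.41 (SE 0.06, adjusted p = 4.98e-05) and Nr0b2, the repressor SHP, fell by 0.88 (SE 0.17, adjusted p = 0.00127) in LL, and none passed in PL. Of 17 tested P450 genes of other subfamilies and families, among them Cyp2e1 and Cyp2f2, Cyp4a32 rose in LL by 0.57 (SE 0.16, adjusted p = 0.0251) and none passed in PL.

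Lists of liver zones, sex-biased genes and other cell types were read beside these results. None of 13 pericentral and 11 periportal genes passed in LL or PL. Of 13 male-biased genes, Elovl3 fell in LL by 0.80 (SE 0.24, adjusted p = 0.0487), and none passed in PL, and none of 4 tested female-biased genes passed in either. None of the tested markers of hepatocytes, macrophages, stellate cells, endothelium, bile ducts, blood, adipose tissue or intestine passed in LL or PL, and those of lymphocytes, muscle and pancreas were too low to test. Haemoglobin and Alas2 summed to 286 to 711 CPM in PP (median 467) and 394 to 1647 CPM in LL (median 557) without GKA. With GKA they summed to 369 to 665 CPM in PP (median 462) and 283 to 2954 CPM in LL (median 439). The medians thus went the other way with GKA. In the fit over both arms, 4 of 5 of these genes had an unadjusted p below 0.05 with higher values in LL. Of all genes, 16% had such a p in either direction. Of 9 stellate cell genes, 4 had such a p with lower values in PL, against 14.1% of all genes in either direction. The part of blood and stellate cells in the values of the members was not tested.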

How the data were processed

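Total RNA of 56 livers was sequenced, with samples of RIN above 6 used. Per the submitters' processing notes and the study's methods, the authors ran FastQC and quantified transcripts with Salmon 1.4.0 against GENCODE M26 (GRCm39). The deposited tables give, for each mouse, estimated counts (NumReads) and TPM for each transcript. Here both were summed per gene and the estimated counts rounded. Groups came from the labels, and PP mouse 7 was left out, as the authors did.

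Differences were tested with edgeR 4.0.16 in R 4.3.3 (quasi-likelihood, TMM scaling, filterByExpr) on all genes that passed the filter, with Benjamini-Hochberg adjusted p-values below 0.05 and a fold of at least 1.3 or at most 0.7. Fits were made for 9 pairs of groups, for genotype and GKA together over 55 mice, and for the interaction. The SE was derived from the fold change and its F statistic. CPM are TMM-scaled. Depth was 5189852 to 8093368 reads per mouse (median 6555851), and intervals from reads alone were not used because the spread between mice is larger. On simulated counts for LL against PP over both arms, 74.1% of 197 genes changed 1.5-fold were recovered, and 47.4% of 196 for LL against PP without GKA. The changed genes were drawn from all tested genes, and the members vary more within groups. Recovery of the members themselves was therefore not measured.

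Named were Por, the receptors, the 3 members with the highest mean TPM in each subfamily, every called member, and in each comparison up to 5 members with the smallest unadjusted p below 0.05. In each list of other genes, up to 3 with the smallest p were eligible. Cry1, Nfil3 and Cyp2b10 were named for their roles after values were seen. The members, lists and alternatives were chosen with earlier results of these data known. The alternatives were DESeq2 1.42.0, its size factors, no filter, a transcript length offset, the clock component as a covariate, PP mouse 7 kept, all 6 groups in 1 fit and leaving out single mice. Leaving out each of 55 mice in the joint fit was added after seeing the data. The labels give no batch, so none was modelled and a batch cannot be told apart from genotype. The p-values weigh differences against the spread between these mice. Promoters were read from GRCm39 and its annotation.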

Additional observations from a re-analysis of the deposited data

Results flagged for a closer look

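In 24 named members and 6 groups, 144 groups of values were examined for a mouse far from the others of its group (Dixon's ratio of the gap to the range, on log2 CPM). A mouse stood apart in 12 of them, or 8.33%. For independent, normally distributed values chance gives about 1 in 20. That rate is only a rough guide here, because the members of a mouse vary together and some values are of mice with no reads. Several PL mice had no Cyp2a4 read, for example. LL GKA mouse 48 was low for 3 members, with ratios of 0.491 for Cyp2c29, 0.503 for Cyp2c50 and 0.593 for Cyp2j9. LL mouse 46 was low for Cyp2b9 (0.554) and Cyp2c38 (0.557). Single low mice were PP mouse 3 for Cyp2b9 (0.517), PP GKA mouse 14 for Cyp2d9 (0.634) and PP GKA mouse 15 for Cyp2j9 (0.484). Single high mice were PL mouse 24 for Cyp2a4 (0.560), PL mouse 26 for Cyp2c29 (0.543), PL mouse 25 for Cyp2j9 (0.590) and LL GKA mouse 53 for Cyp3a13 (0.592).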

How the results depend on the processing

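In LL against PP over both arms 3 members passed, against 1 without the filter on low counts, 0 with the clock component and 0 with the transcript length offset. In PL against PP over both arms 2 passed, against 1, 0 and 0 under the same settings. DESeq2 called 2 members in LL against PP without GKA, 1 in PL against PP without GKA and 1 in LL against PP with GKA, where edgeR called 0 in each. Without single mice the counts lay between 1 and 3 for LL and between 1 and 2 for PL over both arms, between 0 and 1 for LL without GKA, and at 0 for PL without GKA and LL with GKA. With the clock component, signs turned for Cyp2a5 in PL without GKA (-0.33), in LL (-0.40) and in PL (-0.47) over both arms, and for Por in PL (-0.14). With the length offset they turned for Cyp2d22 in LL (-0.11), Cyp2d26 in PL (0.089) and Cyp3a25 in LL against PL (-0.17). The cause was not tested, except that the unfiltered fit adjusts over more genes. Of the other log2 fold changes under alternatives that keep all mice, 258 kept direction and side of the threshold, 14 fell short of it and 4 newly passed. Reads of near-identical genes, low counts and the 8 to 10 mice in a group limit the precision. No paired analysis was possible because the groups share no mouse numbers.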

Other observations

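PP mouse 7, left out of all comparisons, lay below the range of the other 9 PP mice without GKA for 15 of the 33 tested members, above it for 3 and inside it for 15.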
